A study of Homo sapiens with 9 samples.

Results

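The G2/M and mitosis genes followed here are 48 genes given by name. The rule that names them uses no measured value, but they were chosen with earlier results of these data known. They were found by symbol among the 58425 genes with counts, and all 48 were among the 18444 genes that passed the low-count filter and were tested. Nuclear RNA of U2OS cells, an established human osteosarcoma line, was sequenced 48 h after transfection with 15 nM of an siRNA against dyskerin (siDyskerin), against GAR1 (siGAR1) or a control siRNA (siControl), with 3 biological replicates in each group and 9 libraries in all. No other allele or agent was named for any group, and the culture medium and transfection reagent were shared by the 3 groups. Dyskerin, encoded by DKC1, is the pseudouridine synthase of the H/ACA ribonucleoprotein, and GAR1 is another core protein of that complex. Per the study's materials, the control siRNA came from a different supplier than the 2 targeting siRNAs, so the supplier and the group cannot be told apart in a comparison with siControl, whereas siDyskerin and siGAR1 share theirs. Because nuclear RNA of whole cultures was measured, fewer cells in G2 or mitosis and less RNA of a gene per cell cannot be told apart in any value below.

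Cells enter mitosis when CDK1 bound to cyclin B becomes active, after which the Aurora and Polo-like kinases build the spindle and the kinetochores attach it to the chromosomes. The spindle assembly checkpoint holds the anaphase-promoting complex (APC/C) until every chromosome is attached, and separase then cuts the links between sister chromatids before cytokinesis. The mRNAs of these genes are made mostly in late S phase and G2, when a complex of MuvB proteins with the transcription factors B-MYB (MYBL2) and FOXM1 acts at their promoters, and the same MuvB core represses them in resting cells as part of the DREAM complex.

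The promoter stretches shown next carry the 2 sequence elements best known for this class of genes, the CHR element to which MuvB binds and the CCAAT box bound by NF-Y. They are those of AURKB, the member that fell most after dyskerin knockdown and in whose window no CHR element was found, of ESPL1, KIF4A and PRC1, which fell as well and have a CHR element before the start, and of CCNB2 and PLK1, textbook targets of the same element that did not pass the edgeR test (PLK1 passed in DESeq2). Each is the 140 bases before the gene's RefSeq start (for AURKB the upstream of its 2 starts), 5′ to 3′ on the gene's strand, from the RefSeq promoter table on GRCh38.p14, with CHR elements (TTTGAA or TTCGAA) and CCAAT boxes (CCAAT) in capitals, on either strand, so that a box on the opposite strand reads ATTGG.
AURKB, chr17:8210250-8210389, minus strand: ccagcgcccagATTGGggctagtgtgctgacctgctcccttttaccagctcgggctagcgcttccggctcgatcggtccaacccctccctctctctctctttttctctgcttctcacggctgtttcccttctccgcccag
ESPL1, chr12:53268159-53268298, plus strand: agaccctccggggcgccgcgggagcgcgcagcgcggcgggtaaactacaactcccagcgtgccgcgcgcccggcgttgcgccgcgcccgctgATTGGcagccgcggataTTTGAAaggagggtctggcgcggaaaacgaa
KIF4A, chrX:70289964-70290103, plus strand: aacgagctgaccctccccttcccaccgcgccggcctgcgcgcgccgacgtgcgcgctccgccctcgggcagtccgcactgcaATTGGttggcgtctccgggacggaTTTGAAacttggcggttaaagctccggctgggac
PRC1, chr15:90994536-90994675, minus strand: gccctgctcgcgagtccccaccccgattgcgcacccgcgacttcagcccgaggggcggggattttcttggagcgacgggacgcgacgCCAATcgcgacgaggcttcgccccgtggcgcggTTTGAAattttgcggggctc
CCNB2, chr15:59105006-59105145, plus strand: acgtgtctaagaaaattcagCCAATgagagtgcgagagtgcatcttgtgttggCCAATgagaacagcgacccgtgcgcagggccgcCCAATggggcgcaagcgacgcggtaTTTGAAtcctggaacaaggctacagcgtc
PLK1, chr16:23678749-23678888, plus strand: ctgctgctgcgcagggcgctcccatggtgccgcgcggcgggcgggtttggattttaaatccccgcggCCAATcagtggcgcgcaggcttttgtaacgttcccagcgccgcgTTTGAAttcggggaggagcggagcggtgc

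The targeted genes and the material were checked first. DKC1 was at 14.4% of its siControl level in siDyskerin libraries (edgeR quasi-likelihood test, adjusted p = 1.5e-11), and GAR1 was at 15.6% of its siControl level in siGAR1 libraries (adjusted p = 6.1e-08). Transcript counts summed to 48838756 to 90698675 per library. These sums appear to hold a read more than once where transcripts of 1 gene share it, and were not taken as numbers of reads. Of 11 mesenchymal and osteosarcoma markers, 9 passed the count filter, VIM, SPARC and FN1 among them at 347, 73.1 and 29.3 TPM (transcript abundance scaled for length and for library size) in siControl libraries, while COL1A2 and TWIST1 were near or at 0. Of 10 markers of epithelial lines and blood none exceeded 0.362 TPM. Of 5 nuclear RNAs looked up, 4 passed the count filter, MALAT1 among them at 67.3 TPM.

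To compare levels between genes, TPM of each gene's canonical transcript was used, since the summed counts appear to depend on how many transcripts of a gene a read fits. In siControl libraries the securin gene PTTG1 stood at 60.2 ± 0.993 TPM (SD, n = 3, as for the levels that follow), CCNB1 at 59.5 ± 3.32, ANLN at 50.3 ± 4.72 and CDK1 at 50.3 ± 2.48, and these neighbours in the order did not differ beyond their spread except between the first 2 and the last 2. Next came CDC20 at 45.7 ± 4.92 and TOP2A at 39.2 ± 6.26, whose spreads overlap each other. AURKA was at 32.3 ± 0.860 TPM and AURKB at 7.86 ± 0.669. At the low end were ESPL1 at 3.94 ± 0.328 TPM and CDC25C at 2.14 ± 0.118 TPM. KIF23 was left out of this order because its canonical transcript was not among those quantified here.

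After dyskerin knockdown, 8 of the 48 genes were lower and 0 were higher than in siControl. The test was edgeR's quasi-likelihood F-test on gene counts of all 9 libraries, with a gene taken as passing at a Benjamini-Hochberg adjusted p under 0.01 over all 18444 genes. Over those genes 3.32% were lower and 3.08% were higher by the same rule, so that the members' 16.7% lower stood above the share of all genes and their 0 higher below it. Because the members were chosen with earlier results of these data known, such shares are a description and not a test. In order of size the 8 were AURKB, ESPL1, MYBL2, MAD2L1, PRC1, AURKA, KIF4A and KIF2C, with log2 fold changes of -0.93 to -0.32. The study's own call also asked for an absolute log2 fold change above 1, which no member reached. Outside these 8 the values were mostly below 0 too, with 41 of 48 members below 0 and a median log2 fold change of -0.17, beside 49.4% of all genes below 0 and a median of 0.0033. At an unadjusted p under 0.05, 26 members were lower and 1 was higher, against 13.1% and 13.0% of all genes, and DESeq2 gave 10 lower and 0 higher at an adjusted p under 0.01, against 5.44% and 5.1% of all genes. All 3 siDyskerin libraries lay below all 3 siControl libraries in 23 members and above them in 1 (BUB1B), where the same held for 15.5% and 16.0% of all genes.

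After GAR1 knockdown, 0 of the 48 genes were higher and 0 were lower by the same edgeR test, where 1.63% of all genes were higher and 1.79% were lower. At an unadjusted p under 0.05, 7 members were higher and 13 were lower, against 11.8% and 12.2% of all genes. DESeq2 gave 2 higher (CCNB1 and BUB1B) and 3 lower (CENPA, ESPL1 and MYBL2) at an adjusted p under 0.01, against 3.33% and 4.1% of all genes. The median log2 fold change of the members was -0.03 and 29 of 48 were below 0, beside 0.0089 and 48.7% over all genes. The siGAR1 and siControl libraries did not overlap in 21 members, of which 16 were lower and 5 were higher, where 14.1% and 13.6% of all genes were so placed.

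Set directly against GAR1 knockdown, dyskerin knockdown gave 5 members that were lower and 0 that were higher, beside 2.78% and 2.61% of all genes. The 5 were AURKB, ECT2, PRC1, MAD2L1 and AURKA, with log2 fold changes of -0.91 to -0.25. The count of 5 depended on single libraries: it was 1 without siDyskerin replicate 1, 2 without siDyskerin replicate 2 or siGAR1 replicate 1 or 2, 3 without siDyskerin replicate 3 or siControl replicate 2 or 3, 4 without siGAR1 replicate 3 and 7 without siControl replicate 1. Over all genes, 269 to 578 were lower in these fits, beside 513 with all libraries. The median of the members was -0.15 with 42 of 48 below 0, beside -0.0035 and 50.6% over all genes. At an unadjusted p under 0.05, 19 members were lower and 0 were higher, against 12.4% and 13.1% of all genes, and DESeq2 gave 7 lower and 0 higher at an adjusted p under 0.01, against 4.4% and 5.08% of all genes. All 3 siDyskerin libraries lay below all 3 siGAR1 libraries in 23 members and above them in 0, where 14.6% and 15.1% of all genes were so placed. The 2 comparisons with siControl share their control libraries, so this direct comparison is the one that tests a difference between the knockdowns.

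**Figure D1:**
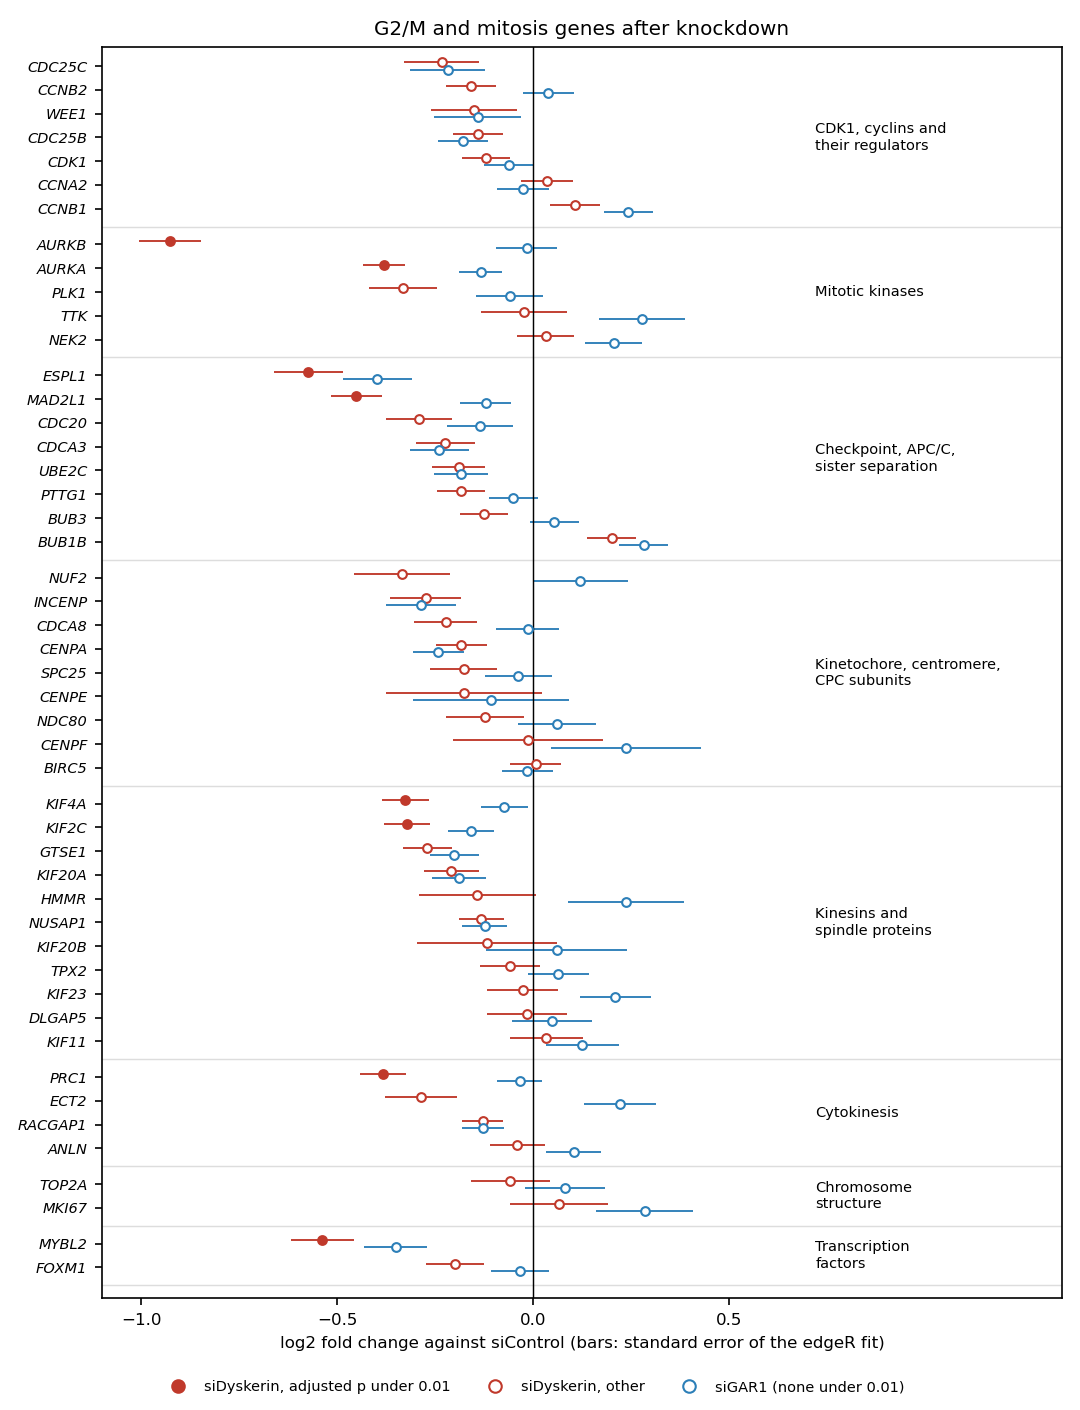
Log2 fold change against siControl (x axis) of the 48 members in rows by role, with siDyskerin in red above siGAR1 in blue and bars of 1 standard error of the edgeR fit. Filled points passed at an adjusted p under 0.01: 8 after dyskerin knockdown, all below 0, with AURKB farthest at -0.93, and none after GAR1 knockdown.

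The library that stood apart was siControl replicate 1, and it touches many of the members with AT-rich transcripts. CENPF, a large kinetochore protein of G2, had 14113, 16665 and 17745 normalized counts in siDyskerin replicates 1 to 3, 18681, 18728 and 20323 in siGAR1, and 9773, 19653 and 19548 in siControl. In CENPE, the kinetochore kinesin, the counts were 5682, 7495 and 8011 in siDyskerin, 7346, 7315 and 7547 in siGAR1, and 4819, 9322 and 9792 in siControl. Both genes stood in siControl replicate 1 at 0.499 and 0.504 of the mean of the other siControl libraries, and their siDyskerin and siGAR1 values lay between the siControl values or close to the upper pair. Across the 48 members the log2 ratio of this library to the other 2 of its group rose with the GC content of the transcript (Pearson r = 0.73 across genes, which share the library), and across 9520 genes with a mean above 500 counts r was 0.67. The same held for siDyskerin replicate 1 (r = 0.86 over the members and 0.68 over the 9520 genes), while in the siGAR1 libraries r lay between -0.13 and 0.12 over the members. In siControl replicate 1 the ratio also fell with log2 transcript length (r = -0.42 over the members and -0.22 over the 9520 genes). MKI67, at 12716 bases and 48.35% GC, stood there at 0.752 of the other siControl libraries, and CCNB1, at 41.9% GC, at 1.06. GC content and length were not separated. Without siControl replicate 1, 10 members were lower after dyskerin knockdown in place of 8, NUF2 (log2 fold change -0.51) and ECT2 (-0.41) being added. Over all genes, 469 of 18846 were lower without that library, beside 612 of 18444 with it. With the GC trend of each library removed, a setting added after the data had been seen, 11 members were lower after dyskerin knockdown, 3 were lower and 1 higher after GAR1 knockdown, and 7 were lower in the direct comparison. Over all 18444 genes this setting gave 847 lower after dyskerin knockdown, 517 lower and 435 higher after GAR1 knockdown, and 740 lower in the direct comparison. The main fit gave 612, 330, 300 and 513 in the same order.

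**Figure D2:**
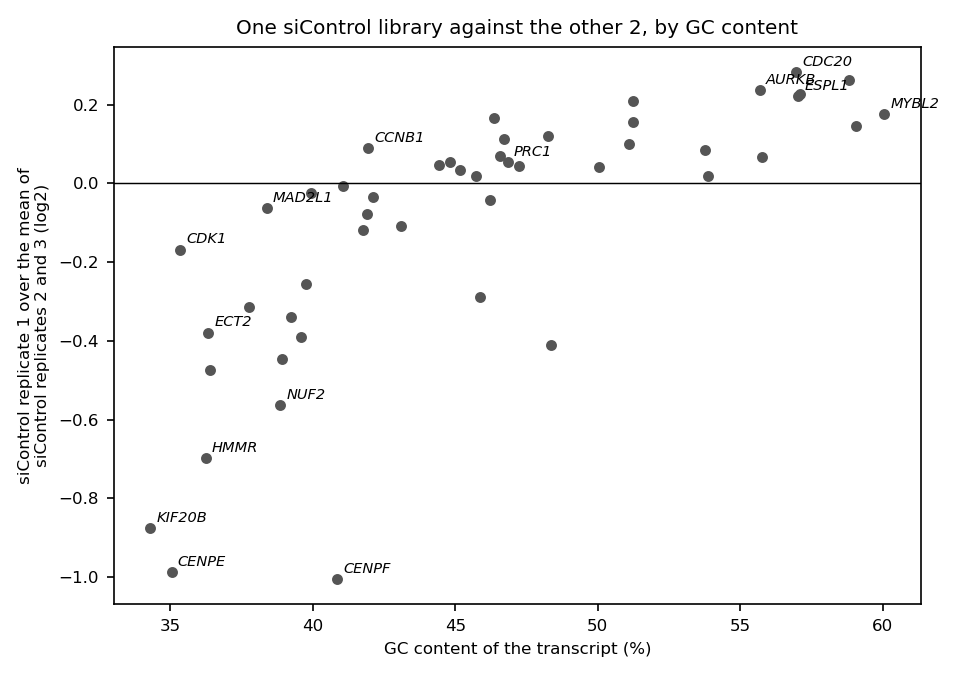
Ratio of siControl replicate 1 to the mean of siControl replicates 2 and 3 (log2, y axis) against the GC content of the canonical transcript (percent, x axis), 1 point for each of the 48 members, some of them named. Points below 40% GC lie mostly under 0, down to about -1 for CENPE and, at 40.8% GC, CENPF, and those above 50% lie above 0.

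Of the 5 mitotic kinases, 2 fell after dyskerin knockdown, beside 3.32% of all genes. AURKB (ENSG00000178999.13, GRCh38 chromosome 17, 8204733 to 8210600, minus strand) encodes Aurora B, the kinase of the chromosomal passenger complex that corrects wrong attachments of chromosomes to the spindle. Its normalized counts were 2565, 2588 and 2304 in siDyskerin libraries, 4531, 4806 and 4687 in siGAR1 libraries, and 5258, 4523 and 4395 in siControl libraries. The siDyskerin libraries lay below all the others, and the siGAR1 and siControl libraries overlapped. With dyskerin depleted the log2 fold change was -0.93 (standard error 0.08, edgeR adjusted p = 6.1e-06), a change of -47.4%. After GAR1 knockdown it was -0.02 with a 95% interval of -0.19 to 0.15 (adjusted p = 0.93), and the direct comparison gave -0.91 (standard error 0.08, adjusted p = 8.5e-06). AURKB passed in both of its comparisons under each of the 18 other settings and left-out libraries tried at the adjusted p of 0.01.

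The transcripts of AURKB were all lower. All 14 of its transcripts with a mean of at least 10 counts in each group were lower in siDyskerin than in siControl, by log2 differences of -1.01 to -0.39. These transcripts appear to share most of their reads and are not independent. The canonical transcript had 4.17 ± 0.223 TPM in siDyskerin, 7.72 ± 0.432 in siGAR1 and 7.86 ± 0.669 in siControl (SD, n = 3 each). Its partners in the passenger complex did not pass. INCENP, the scaffold of the complex, had a log2 fold change of -0.27 (95% interval -0.47 to -0.08, adjusted p = 0.059), CDCA8 (borealin) of -0.22 (-0.40 to -0.05, adjusted p = 0.088) and BIRC5 (survivin) of 0.01 (-0.13 to 0.15, adjusted p = 0.96). The ratio of AURKB to BIRC5 counts, set to a mean of 1 in siControl, was 0.539, 0.537 and 0.495 in siDyskerin libraries, 0.978, 0.972 and 1.06 in siGAR1 libraries, and 1.04, 0.964 and 0.998 in siControl libraries. Within each library, then, AURKB was lower relative to survivin after dyskerin knockdown, and the siDyskerin ratios did not overlap the others. The fall was smaller against the other partners, with siDyskerin ratios of 0.583 to 0.684 to INCENP and 0.568 to 0.677 to CDCA8. Against AURKA the siDyskerin ratios were 0.651 to 0.717. The siGAR1 ratios to INCENP, 1.15 to 1.24, lay above those of siControl (0.972 to 1.04).

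AURKA (ENSG00000087586.18, chromosome 20, 56369389 to 56392337, minus strand), which encodes the Aurora A kinase of the centrosomes and spindle poles, had 31749, 33403 and 31430 normalized counts in siDyskerin, 38709, 38969 and 36965 in siGAR1, and 42823, 42403 and 40538 in siControl. The 3 groups did not overlap, with siGAR1 between the other 2. On the log2 scale it differed by -0.38 with dyskerin depleted (standard error 0.05, adjusted p = 0.00034), -0.13 after GAR1 knockdown (95% interval -0.25 to -0.02, adjusted p = 0.14) and -0.25 in the direct comparison (adjusted p = 0.0087). The direct call was lost on leaving out any 1 of 7 of the 9 libraries, with an adjusted p of up to 0.060, whereas the call against siControl was kept without each library in turn. TPX2, which activates Aurora A on microtubules, was at -0.06 after dyskerin knockdown (95% interval -0.22 to 0.11, adjusted p = 0.70). PLK1, the Polo-like kinase of mitotic entry, had 3735, 3405 and 3121 counts in siDyskerin, 4412, 3886 and 4103 in siGAR1, and 4769, 4142 and 4007 in siControl. These siDyskerin libraries were below all others, but the log2 fold change of -0.33 did not pass in edgeR (adjusted p = 0.020). It passed in DESeq2 (adjusted p = 0.0031) and with a replicate block (0.0041), in 4 of the 18 alternatives in all, and it was -0.06 after GAR1 knockdown (adjusted p = 0.72). TTK (Mps1), the kinase that starts checkpoint signalling, and NEK2, a centrosome kinase, had values of -0.02 and 0.03 in siDyskerin cells and 0.28 and 0.21 in siGAR1 cells, none of which passed. Without siControl replicate 1 TTK stood at 0.13 after GAR1 knockdown (adjusted p = 0.38).

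**Figure D3:**
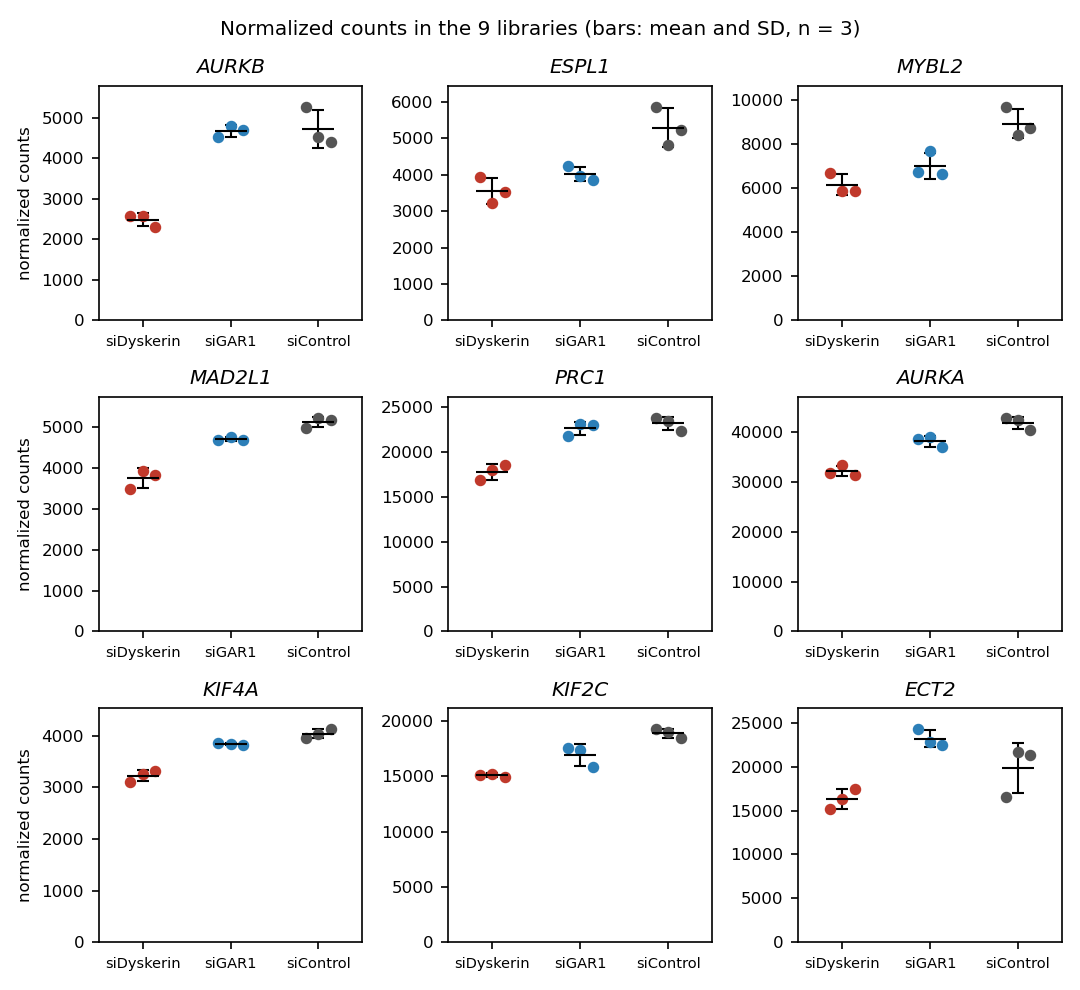
Normalized counts (y axis, from 0) in each library of the 8 members that fell after dyskerin knockdown and of ECT2, which was lower in siDyskerin than in siGAR1. Points are replicates 1 to 3 from left to right in siDyskerin, siGAR1 and siControl, and bars give the mean and SD. In AURKB the siDyskerin libraries sit between 2304 and 2588 and all others at 4395 or more.

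Among the 8 genes of the checkpoint, the APC/C and sister separation, 2 fell after dyskerin knockdown, beside 3.32% of all genes. ESPL1 (ENSG00000135476.12, chromosome 12, 53268299 to 53293638, plus strand) encodes separase, the protease that opens cohesin at anaphase. It had 3941, 3225 and 3519 normalized counts in siDyskerin, 4241, 3978 and 3849 in siGAR1, and 5853, 4814 and 5225 in siControl. Both knockdowns lay below all siControl libraries and overlapped each other. The log2 fold change was -0.57 with dyskerin depleted (standard error 0.09, adjusted p = 0.00063) and -0.40 after GAR1 knockdown (standard error 0.09, adjusted p = 0.013, or 0.00036 by DESeq2), and the direct comparison gave -0.18 with a 95% interval of -0.37 to 0.01 (adjusted p = 0.23). PTTG1, which encodes securin, the inhibitor of separase, was at -0.18 (95% interval -0.32 to -0.05, adjusted p = 0.068) and -0.05 (-0.18 to 0.08, adjusted p = 0.67) after dyskerin and GAR1 knockdown.

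MAD2L1 (ENSG00000164109.14, chromosome 4, 120055623 to 120066858, minus strand) encodes MAD2, the checkpoint protein that binds CDC20. Counts were 3483, 3939 and 3843 in siDyskerin, 4694, 4771 and 4697 in siGAR1, and 4985, 5223 and 5191 in siControl, with no overlap between the groups. On the log2 scale it differed by -0.45 with dyskerin depleted (standard error 0.07, adjusted p = 0.00040), -0.12 after GAR1 knockdown (95% interval -0.26 to 0.02, adjusted p = 0.28) and -0.33 in the direct comparison (adjusted p = 0.0049), the last of which was lost on leaving out any library but siControl replicate 1. CDC20, the activator of the APC/C, had 11569, 10056 and 9943 counts in siDyskerin, 11618, 12213 and 11344 in siGAR1, and 14595, 11935 and 12071 in siControl, and its log2 fold changes of -0.29 and -0.13 did not pass (adjusted p = 0.035 and 0.36). UBE2C, the ubiquitin-conjugating enzyme of the APC/C, was at -0.19 and -0.18 (adjusted p = 0.085 and 0.11).

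BUB1B, which encodes the checkpoint protein BUBR1, was among the few members with values above 0 in both knockdowns. It had 7008, 7429 and 7196 counts in siDyskerin, 7464, 7849 and 7587 in siGAR1, and 5965, 6643 and 6220 in siControl, so that both knockdowns lay above all siControl libraries. The log2 fold changes were 0.20 (95% interval 0.07 to 0.33, adjusted p = 0.050) and 0.28 (0.15 to 0.42, adjusted p = 0.013, or 0.00038 by DESeq2), and neither passed in edgeR. BUB3, its partner in the checkpoint, was at -0.12 and 0.05.

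None of the 7 genes of the CDK1 switch passed in any of the 3 comparisons, with an edgeR unadjusted p under 0.05 in 3 (lower) after dyskerin knockdown, in 1 (higher) and 2 (lower) after GAR1 knockdown and in 2 (lower) in the direct comparison, and with DESeq2 calling CCNB1 alone, after GAR1 knockdown. Over all genes the shares at an unadjusted p under 0.05 were 11.8% to 13.1% in each direction. CDK1, the kinase of mitotic entry, had 15495, 16398 and 16539 counts in siDyskerin, 16960, 17028 and 16422 in siGAR1, and 16208, 18074 and 18358 in siControl, and the groups overlapped. On the log2 scale it differed by -0.12 (95% interval -0.25 to 0.01) and -0.06 (-0.20 to 0.07). CCNB1, the major mitotic cyclin, had 29633, 33127 and 30866 counts in siDyskerin, 33930, 35557 and 33423 in siGAR1, and 30186, 29748 and 27013 in siControl. All siGAR1 libraries were above all others, with a log2 fold change of 0.24 against siControl (95% interval 0.11 to 0.38, edgeR adjusted p = 0.029, DESeq2 adjusted p = 0.0059), while dyskerin knockdown gave 0.11 (-0.03 to 0.24, adjusted p = 0.32). CCNB2, the other B-type cyclin, was at -0.16 and 0.04, CCNA2 (cyclin A2) at 0.04 and -0.02, and WEE1, the kinase that inhibits CDK1, at -0.15 and -0.14, all with adjusted p of 0.13 or more. The phosphatases that activate CDK1, CDC25B and CDC25C, were at -0.14 and -0.23 in siDyskerin cells and -0.18 and -0.22 in siGAR1 cells.

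Of the 9 genes of the centromere, kinetochore and passenger complex, with AURKB counted among the kinases and not here, 0 passed in any comparison. At an unadjusted p under 0.05 in edgeR 4, 2 and 2 were lower and none was higher after dyskerin knockdown, after GAR1 knockdown and in the direct comparison, where 13.1%, 12.2% and 12.4% of all genes were lower at that level, and DESeq2 called 0, 1 (CENPA) and 1 (NUF2). CENPA, the histone H3 variant of centromeres, had 2771, 2809 and 3001 counts in siDyskerin, 2738, 2846 and 2654 in siGAR1, and 3315, 3180 and 3242 in siControl. Both knockdowns lay below siControl, with log2 fold changes of -0.18 (95% interval -0.32 to -0.04, adjusted p = 0.083) and -0.24 (-0.38 to -0.10, adjusted p = 0.035). NUF2, a subunit of the NDC80 complex that binds microtubules, had 4566, 5442 and 5175 counts in siDyskerin, 7172, 6818 and 6826 in siGAR1, and 4847, 7122 and 7188 in siControl. Here the siControl group was split by its replicate 1, the log2 fold change after dyskerin knockdown was -0.33 (adjusted p = 0.094), and without that library it was -0.51 (adjusted p = 0.00088). In the direct comparison NUF2 was at -0.46 (95% interval -0.72 to -0.19, adjusted p = 0.028), and since all 9 libraries share 1 estimate of the spread, leaving out siControl replicate 1 kept that value at -0.46 and gave an adjusted p of 0.00088. NDC80 and SPC25, other subunits of that complex, were at -0.12 and -0.18 after dyskerin knockdown and did not pass.

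Among the 11 kinesins and spindle proteins, 2 fell after dyskerin knockdown, beside 3.32% of all genes. Both are motor proteins of the kinesin family that act on chromosomes. KIF4A (ENSG00000090889.12, chromosome X, 70290104 to 70420886, plus strand), the chromokinesin of the central spindle, had 3110, 3250 and 3309 counts in siDyskerin, 3859, 3843 and 3814 in siGAR1, and 3959, 4038 and 4120 in siControl. The groups did not overlap, and the log2 fold changes were -0.33 with dyskerin depleted (standard error 0.06, adjusted p = 0.0026), -0.07 after GAR1 knockdown (95% interval -0.20 to 0.06, adjusted p = 0.50) and -0.25 in the direct comparison (adjusted p = 0.015). KIF2C (ENSG00000142945.13, chromosome 1, 44739818 to 44767767, plus strand) encodes MCAK, which takes microtubules apart at centromeres. It had 15163, 15265 and 14951 counts in siDyskerin, 17588, 17430 and 15817 in siGAR1, and 19266, 18978 and 18462 in siControl, again without overlap. On the log2 scale it differed by -0.32 with dyskerin depleted (standard error 0.06, adjusted p = 0.0021) and -0.16 after GAR1 knockdown (95% interval -0.28 to -0.03, adjusted p = 0.11). The KIF2C call was lost on leaving out siControl replicate 2, siDyskerin replicate 2 or siDyskerin replicate 3 (adjusted p up to 0.014), and that of KIF4A on leaving out siControl replicate 2 or 3 or siDyskerin replicate 1 or 2 (up to 0.016).

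The spindle motor KIF11 (Eg5), the target of several mitotic inhibitors, was at 0.03 in siDyskerin and 0.13 in siGAR1 cells (95% intervals -0.17 to 0.24 and -0.07 to 0.33). KIF20A, a kinesin of the central spindle, was at -0.21 and -0.19 (adjusted p = 0.064 and 0.11), with both knockdowns below all siControl libraries. GTSE1, a microtubule-binding protein of G2, had 3714, 3596 and 3674 counts in siDyskerin, 3769, 3880 and 3872 in siGAR1, and 4585, 4170 and 4485 in siControl. It came closest to the threshold without passing it, with a log2 fold change of -0.27 after dyskerin knockdown (adjusted p = 0.011 by edgeR, 0.00028 by DESeq2), and was at -0.20 after GAR1 knockdown (adjusted p = 0.063). The AT-rich KIF20B and HMMR, a kinesin and a microtubule-binding protein, had standard errors of 0.18 and 0.15, the largest of this role, and did not pass. The remaining members not yet named, CDCA3 (of the checkpoint and APC/C group), NUSAP1, DLGAP5 and KIF23 (of the spindle group), lay between -0.22 and -0.02 after dyskerin knockdown and between -0.24 and 0.21 after GAR1 knockdown, and none passed.

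In cytokinesis, 1 of 4 genes fell after dyskerin knockdown and 2 of 4 were lower in siDyskerin than in siGAR1, beside 3.32% and 2.78% of all genes. PRC1 (ENSG00000198901.14, chromosome 15, 90966040 to 90995629, minus strand), which bundles the microtubules of the central spindle, had 16869, 17986 and 18560 counts in siDyskerin, 21807, 23167 and 22997 in siGAR1, and 23777, 23433 and 22388 in siControl. The siDyskerin libraries lay below the other groups, which overlapped. On the log2 scale it differed by -0.38 with dyskerin depleted (standard error 0.06, adjusted p = 0.00060), -0.03 after GAR1 knockdown (95% interval -0.16 to 0.09, adjusted p = 0.77) and -0.35 in the direct comparison (adjusted p = 0.0017, lost only on leaving out siDyskerin replicate 1). KIF4A, described above, is known to act together with PRC1 at the central spindle.

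ECT2 (ENSG00000114346.14, chromosome 3, 172750682 to 172821474, plus strand), the exchange factor that activates RhoA at the cleavage furrow, had 15137, 16282 and 17447 counts in siDyskerin, 24234, 22847 and 22398 in siGAR1, and 16535, 21691 and 21310 in siControl. All siGAR1 libraries were above all others, and siControl replicate 1 fell among the siDyskerin values. In the direct comparison the log2 fold change was -0.51 (standard error 0.09, adjusted p = 0.0029), and the call was lost on leaving out replicate 1 or 2 of siDyskerin or of siGAR1 (adjusted p up to 0.022). Against siControl, dyskerin knockdown gave -0.29 (95% interval -0.48 to -0.09, adjusted p = 0.056) and GAR1 knockdown 0.22 (0.03 to 0.42, adjusted p = 0.15). Without siControl replicate 1 these values were -0.41 (adjusted p = 0.0019) and 0.10 (adjusted p = 0.46). RACGAP1, the partner of ECT2 at the central spindle, was at -0.13 in both knockdowns, and ANLN (anillin), the scaffold of the contractile ring, at -0.04 and 0.10, none of which passed.

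Of the 2 transcription factors, MYBL2 fell after dyskerin knockdown, where 3.32% of all genes were lower. MYBL2 (ENSG00000101057.16, chromosome 20, 43667019 to 43716495, plus strand) had 6685, 5880 and 5881 counts in siDyskerin, 6724, 7661 and 6617 in siGAR1, and 9658, 8383 and 8732 in siControl. Both knockdowns were below all siControl libraries and overlapped each other. The log2 fold changes were -0.54 with dyskerin depleted (standard error 0.08, adjusted p = 0.00052) and -0.35 after GAR1 knockdown (standard error 0.08, adjusted p = 0.015, or 0.00072 by DESeq2), with -0.19 in the direct comparison (95% interval -0.36 to -0.01, adjusted p = 0.16). FOXM1 had 9052, 8736 and 8788 counts in siDyskerin, 9463, 9153 and 11180 in siGAR1, and 10486, 9850 and 10167 in siControl, and its log2 fold changes of -0.20 and -0.03 did not pass (adjusted p = 0.097 and 0.83).

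The 2 genes of chromosome structure, often used to count proliferating cells, did not pass, although MKI67 after GAR1 knockdown had an unadjusted p under 0.05 in edgeR (1 gene higher, and 0 by DESeq2). TOP2A, which encodes the topoisomerase of mitotic chromosomes, had 17636, 19498 and 20350 counts in siDyskerin, 20939, 20741 and 21656 in siGAR1, and 16076, 22594 and 21180 in siControl. For MKI67, the gene of the Ki-67 antigen, the counts were 20494, 20992 and 22551 in siDyskerin, 22427, 21759 and 30290 in siGAR1, and 16713, 22552 and 21878 in siControl. Groups overlapped in both genes against siControl. The log2 fold changes were -0.06 and 0.08 for TOP2A and 0.07 and 0.28 for MKI67 after dyskerin and GAR1 knockdown, and without siGAR1 replicate 3 or siControl replicate 1 the MKI67 value after GAR1 knockdown was 0.11 or 0.15.

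**Figure D4:**
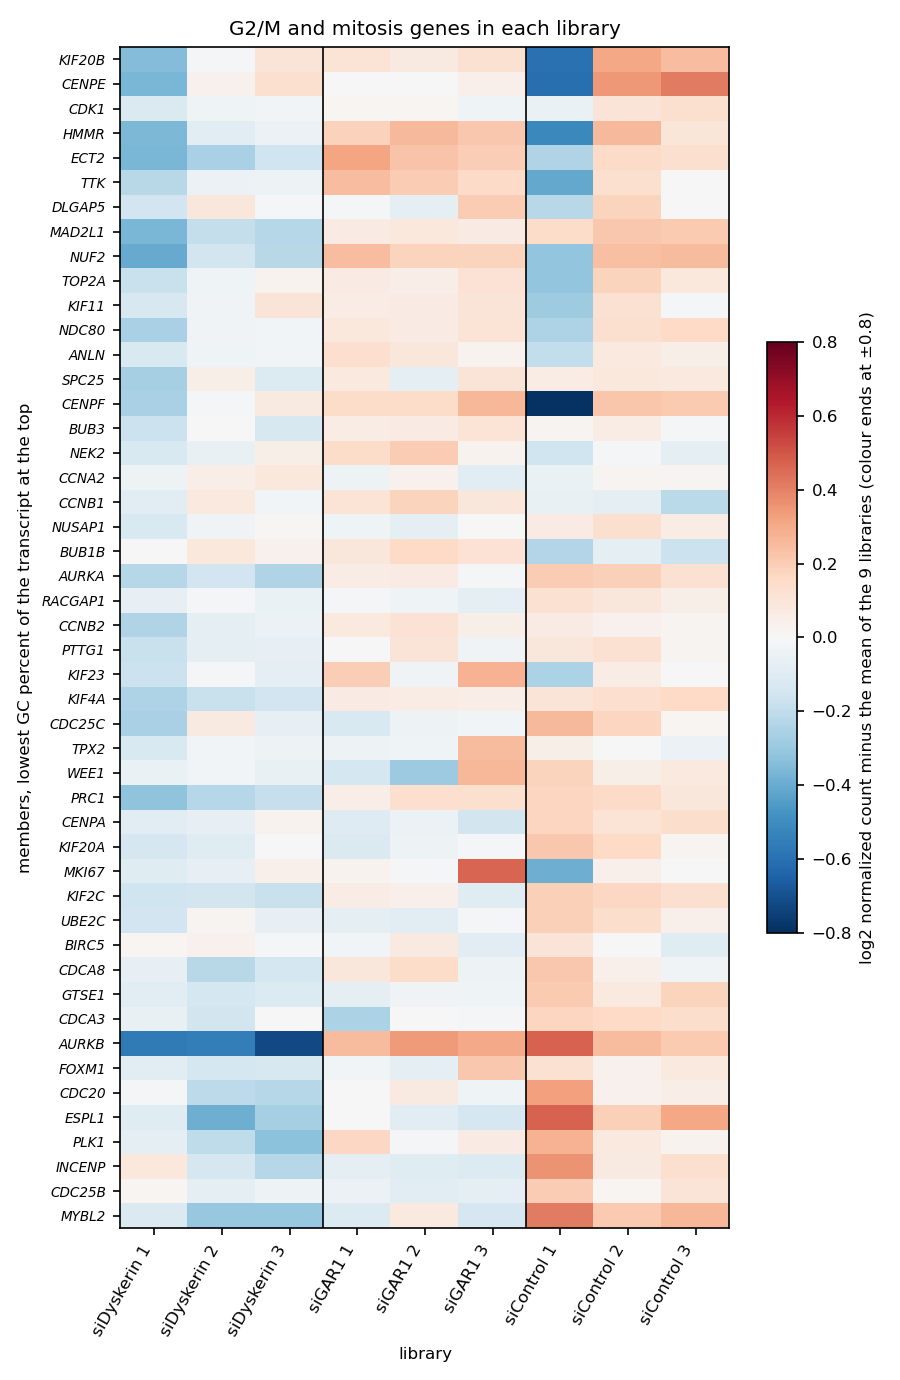
Heat map of the 48 members (rows, lowest GC content of the transcript at the top) in the 9 libraries (columns), as the log2 normalized count minus the gene's mean over the libraries, red above and blue below. AURKB is blue in the 3 siDyskerin libraries, and the low-GC genes at the top, with CENPF, are blue in siControl replicate 1 and in part in siDyskerin replicate 1.

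Averaged over the 48 members, the log2 level relative to the siControl mean was -0.23, -0.15 and -0.15 in siDyskerin replicates 1 to 3, -0.02, -0.02 and 0.002 in siGAR1, and -0.07, 0.05 and 0.02 in siControl. The siDyskerin libraries thus lay lowest on average, and siControl replicate 1 was the lowest of the rest. By role, the mean over the 5 kinases was -0.33, -0.29 and -0.35 in siDyskerin, 0.09, 0.07 and 0.02 in siGAR1, and -0.01, 0.04 and -0.03 in siControl, whereas the mean over the 7 genes of the CDK1 switch was -0.16, -0.05 and -0.07 in siDyskerin, -0.07, -0.06 and -0.02 in siGAR1, and 0.03, -0.002 and -0.03 in siControl. Without AURKB the mean over the other 4 kinases was -0.19, -0.15 and -0.17 in siDyskerin, 0.12, 0.08 and 0.03 in siGAR1, and -0.05, 0.06 and -0.01 in siControl. The mean of the kinases in siDyskerin libraries was thus nearer 0 without AURKB, and the difference from the CDK1 group was not tested.

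Other genes of the same pathway gave 4 lower (5.8%) and 1 higher of 69 after dyskerin knockdown (median log2 fold change -0.09), where 3.32% and 3.08% of all genes were so called. Below 0 were 48 of the 69, beside 49.4% of all genes. At an unadjusted p under 0.05 in edgeR, 21 were lower and 2 higher, against 13.1% and 13.0% of all genes. DESeq2 gave 10 lower and 1 higher at an adjusted p under 0.01, against 5.44% and 5.1% of all genes. UBE2S, the chain-extending ubiquitin enzyme of the APC/C, had 1021, 934 and 805 counts in siDyskerin, 1384, 1737 and 1321 in siGAR1, and 1626, 1496 and 1327 in siControl, with a log2 fold change of -0.69 (edgeR adjusted p = 0.0015) and -0.68 in the direct comparison (adjusted p = 0.0022). TRIP13, the enzyme that recycles MAD2, was at -0.37 (adjusted p = 0.0037), TMPO, a nuclear envelope protein, at -0.30 (adjusted p = 0.0052), and CDC27, an APC/C subunit, was higher at 0.32 (adjusted p = 0.0033). CCNF (cyclin F), at -0.50 (adjusted p = 0.0089), was named after its values had been seen, to complete the count. After GAR1 knockdown 3 of the 69 were lower (4.35%, beside 1.79% of all genes) and 0 higher (beside 1.63%). The 3 were DEPDC1B at -0.53 (adjusted p = 0.00018), CENPM, a centromere protein, at -0.41 (adjusted p = 0.0028), and SPC24, a subunit of the NDC80 complex, at -0.41 (adjusted p = 0.0086). With an unadjusted p under 0.05 in edgeR there were 12 lower and 7 higher, against 12.2% and 11.8% of all genes. By DESeq2 7 were lower and 1 higher, against 4.1% and 3.33% of all genes. In the direct comparison 2 were lower (2.9%, near the 2.78% of all genes), UBE2S and MIS18A, which prepares centromeres for CENPA (-0.43, adjusted p = 0.0030), and 0 were higher. There, 15 were lower and 6 higher at an unadjusted p under 0.05 in edgeR, against 12.4% and 13.1% of all genes. By DESeq2 4 were lower and 1 higher, against 4.4% and 5.08% of all genes.

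Among 22 genes of the MuvB and DREAM complexes and of brakes on the cycle, 2 were lower (9.09%) and 2 higher after dyskerin knockdown, beside 3.32% and 3.08% of all genes. E2F5, a repressor E2F, was at -0.77 (adjusted p = 0.00031) and MYBL1 (A-MYB), a relative of MYBL2, at -0.56 (adjusted p = 0.0028), while GADD45B and BTG2, stress-induced inhibitors of growth, were at 0.48 (adjusted p = 0.0033) and 0.39 (adjusted p = 0.010, just under the threshold before rounding). After GAR1 knockdown E2F5 was lower at -0.60 (adjusted p = 0.0035) and GADD45A, which restrains CDK1, higher at 0.36 (adjusted p = 0.0034). MYBL1 was lower in the direct comparison at -0.64 (adjusted p = 0.0016). The 57 genes of G1/S and DNA replication gave 6 lower (10.5%) and 0 higher in either knockdown. Beside these, 3.32% of all genes were lower after dyskerin and 1.79% after GAR1 knockdown. The medians were -0.09 after dyskerin and -0.17 after GAR1 knockdown, with 39 and 49 of 57 below 0. At an unadjusted p under 0.05 in edgeR, 20 were lower and 1 higher after dyskerin knockdown, against 13.1% and 13.0% of all genes. After GAR1 knockdown 32 were lower and 1 higher at that level, against 12.2% and 11.8% of all genes. DESeq2 gave 11 and 17 lower at an adjusted p under 0.01, against 5.44% and 4.1% of all genes, and 0 higher in each. CCNE1 (cyclin E1) led the list in both knockdowns, at -0.88 (adjusted p = 2.6e-05) and -0.81 (adjusted p = 1e-04). In the direct comparison this list had a median of 0.08, with 13 genes higher and 3 lower at an unadjusted p under 0.05, where 13.1% and 12.4% of all genes were so placed. Side by side, the G2/M members had medians of -0.17 and -0.03 in the same 2 comparisons, with -0.15 in the direct comparison, and the difference between the lists was not tested.

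RefSeq promoter windows of 250 bases before to 50 after the start were at hand for 39 of the 48 members. A CHR element was found in 30 of the 39 (76.9%), a CCAAT box in 32 (82.1%) and both in 26 (66.7%), where the same searches on both strands found them in 16.3%, 43.0% and 6.87% of 12081 tested genes with a window. Neither motif contains the other. Of the members that fell after dyskerin knockdown 7 had a window, and 4 of them held a CHR element, in ESPL1, KIF4A and PRC1 at 31, 34 and 20 bases before the start and in MAD2L1 at 24 bases after it. None was found in the windows of AURKB, KIF2C and MYBL2. Among the 32 members with a window that did not pass, 26 held a CHR element, PLK1 and CCNB2 among them, each at 29 bases before the start. In the stretches printed above, then, ESPL1, KIF4A, PRC1, CCNB2 and PLK1 share the arrangement of a CCAAT box followed by a CHR element, with log2 fold changes after dyskerin knockdown of -0.57, -0.33, -0.38, -0.16 and -0.33, while AURKB, at -0.93, shows in its stretch a CCAAT box on the opposite strand alone. These are matches of letters, not sites shown to be bound. The AURKB windows reach base 8210499, short of the annotated gene end at 8210600, and sequence beyond them was not searched.

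**Figure D5:**
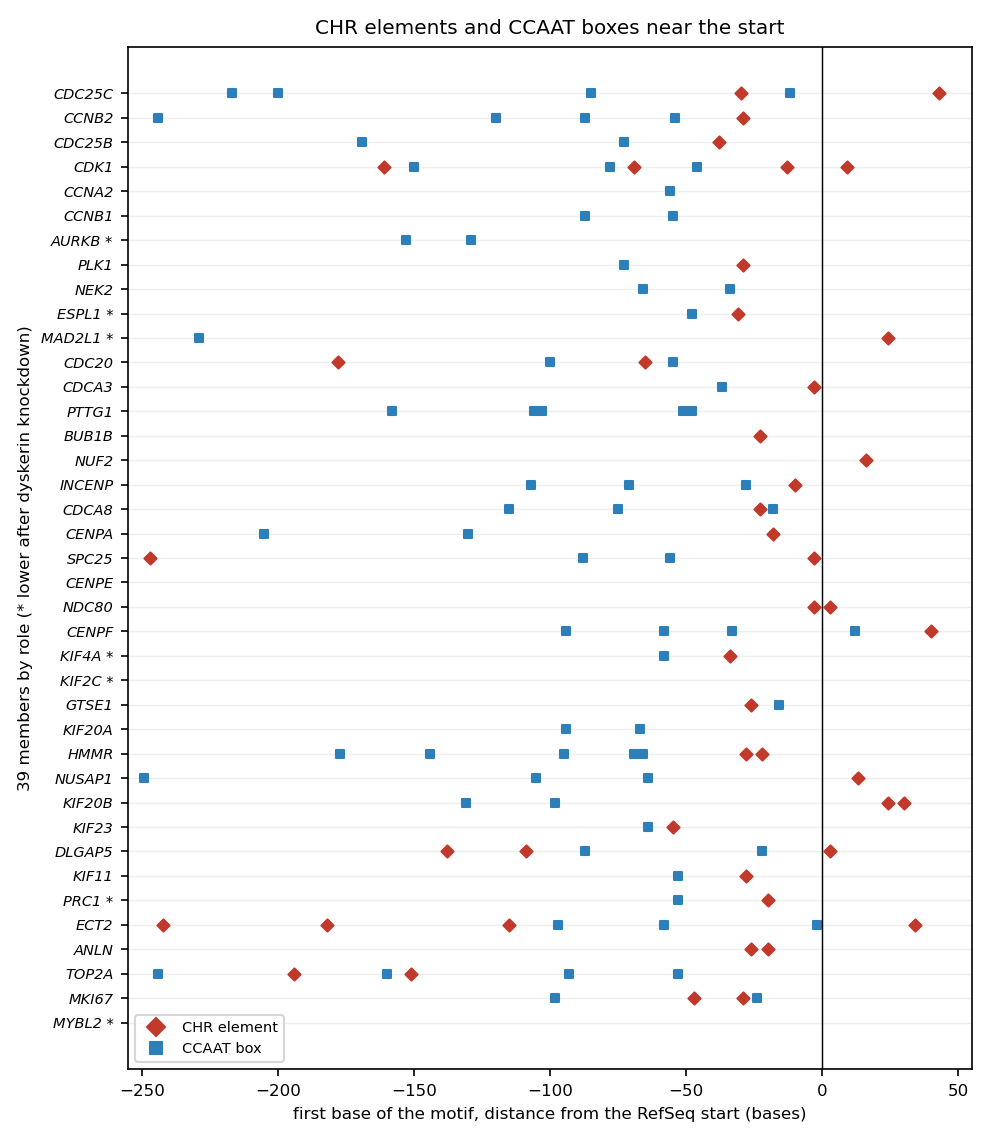
Position of CHR elements (red diamonds) and CCAAT boxes (blue squares) as the distance of the first base from the RefSeq start (bases, x axis) in the 39 members with a promoter window, in rows by role. Members with an asterisk fell after dyskerin knockdown, and 3 of those, AURKB, KIF2C and MYBL2, show no CHR element.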

How the data were processed

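Nuclear RNA was depleted of ribosomal RNA (RiboCop), made into CORALL libraries and sequenced as paired ends. Per the labels and the study's methods, the authors used FastQC 0.11.9, Trim Galore 0.6.4, Bowtie2 2.4.1 against rRNA and tRNA, STAR 2.7.0e and Salmon 1.2.0 with GENCODE 27 on GRCh38. They deposited Salmon's estimated counts and TPM per transcript, with transcript lengths, 1 table per library. At least 99.998% of these counts were whole numbers in each library, so a read appears to be counted in every transcript it fits. The study's methods do not state this. Summed counts were therefore used to compare a gene between groups, but not genes with each other. Of 200401 transcripts 195887 were matched by identifier to GENCODE 44 genes, and unmatched ones (3.69 to 3.84% of the summed counts) were left out.

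Estimated counts as deposited were rounded, summed per gene and tested with edgeR 4.0.16 in R 4.3.3 (filterByExpr, TMM, robust quasi-likelihood F-test, all 9 libraries, no covariates), with Benjamini-Hochberg adjustment over 18444 genes. The common biological coefficient of variation was 0.0886, above counting error at these depths. The edgeR fits were tested on simulated data, counts drawn from these libraries' means with known fold changes set in some genes. Normalized counts were divided by relative effective library size. Alternatives were DESeq2 1.42.0, relative log expression factors, no filter, a replicate block, only the 2 groups compared, lengthScaledTPM counts, coding transcripts only, 1 transcript per gene, an adjusted p of 0.05 and each library left out, with a GC offset added after seeing the data. Nothing says that replicates were cultured separately beyond their label as biological replicates.

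The members and lists were chosen with earlier results of these data known. Genes named are a fixed set (CDK1, CCNA2, CCNB1, CCNB2, PLK1, AURKA, AURKB, CDC20, UBE2C, PTTG1, BUB1B, CENPA, CENPE, CENPF, KIF11, KIF20A, TPX2, TOP2A, MKI67, FOXM1, MYBL2, WEE1), up to 8 passing members per direction and comparison, and up to 4 passing genes of each other list, by smallest p. Others are named for a role beside these, after their values were seen. Promoters come from RefSeq (GRCh38.p14).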

Additional observations from a re-analysis of the deposited data

How the results depend on the processing

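After dyskerin knockdown, 6 to 10 members were lower on leaving out each library in turn, and MAD2L1, ESPL1, PRC1, AURKB, MYBL2 and AURKA were lower without each. Over all genes, 369 to 779 were lower in these fits. At an adjusted p under 0.05, 11 members were lower and 1 was higher, where 1238 and 1176 of all 18444 genes were so placed. After GAR1 knockdown, where no member passed, 2 were higher and 3 lower with DESeq2, 1 and 3 without a low-count filter, 1 and 1 with a replicate block, 1 and 1 with protein-coding transcripts only, 1 and 3 with the GC offset, 2 and 3 at an adjusted p under 0.05, 0 and 1 with 1 transcript per gene, and 0 higher with 0 to 1 lower on leaving out libraries. Over all genes there were 614 higher and 757 lower with DESeq2, and 622 and 786 of 34877 without a filter. The replicate block gave 336 and 375, coding transcripts 349 and 376 of 13670, and the GC offset 435 and 517. An adjusted p under 0.05 gave 765 and 840, and 1 transcript per gene 324 and 359 of 16529. Leaving out libraries gave 141 to 246 higher and 148 to 337 lower. In the direct comparison 3 members were lower with lengthScaledTPM counts and 1 to 7 on leaving out libraries, with AURKB alone lower without siDyskerin replicate 1. Over all genes, 352 of 18656 were lower there with lengthScaledTPM counts and 269 to 578 on leaving out libraries. The cause of these changes was not tested.

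Correlations of same-numbered libraries of different groups were -0.072 to 0.10, beside -0.10 to 0.062 for the other pairs. Such values do not settle whether replicate numbers mark a pairing. The replicate block gave 9, 1 and 5 lower members in the 3 comparisons, beside 694, 375 and 550 of all 18444 genes. Values of members that changed sign, none past the threshold there, were as follows.

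After dyskerin knockdown these were ANLN (0.00663), DLGAP5 (0.0246) and KIF23 (0.00675) with 1 transcript per gene, BIRC5 without a low-count filter (-0.000377) and with lengthScaledTPM counts (-0.00497), CCNA2 (-0.000243), KIF11 (-0.0135) and NEK2 (-0.00415) with the GC offset, and CENPF with the replicate block (0.0281). On leaving out libraries the values spanned 0 for ANLN (-0.129 to 0.00127), BIRC5 (-0.0485 to 0.0533), CCNA2 (-0.00108 to 0.0674), CENPF (-0.285 to 0.134), DLGAP5 (-0.122 to 0.0774), HMMR (-0.348 to 0.0123), KIF11 (-0.0793 to 0.12), KIF20B (-0.364 to 0.0311), KIF23 (-0.124 to 0.0287), MKI67 (-0.0654 to 0.138), NEK2 (-0.0249 to 0.0645), TOP2A (-0.2 to 0.033) and TTK (-0.174 to 0.0842).

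After GAR1 knockdown these were AURKB (0.0368), BUB3 (-0.00763), CDCA8 (0.00109), DLGAP5 (-0.0284), FOXM1 (0.0171), KIF20B (-0.011), NDC80 (-0.00344) and PLK1 (0.00859) with the GC offset, CCNB2 (-0.00482) and DLGAP5 (-0.00158) with lengthScaledTPM counts, and PRC1 (0.00715) with 1 transcript per gene. On leaving out libraries the values spanned 0 for AURKB (-0.0742 to 0.0622), BIRC5 (-0.0713 to 0.0332), CDCA8 (-0.0733 to 0.0553), CENPE (-0.374 to 0.0557), CENPF (-0.0323 to 0.383), DLGAP5 (-0.0554 to 0.14), FOXM1 (-0.135 to 0.0133), KIF20B (-0.184 to 0.207), NDC80 (-0.0644 to 0.122), NUF2 (-0.0498 to 0.204), PLK1 (-0.117 to 0.0151), SPC25 (-0.0771 to 0.00642), TOP2A (-0.0578 to 0.171) and TPX2 (-0.0458 to 0.107).

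In the direct comparison these were CDC25C (0.0733), DLGAP5 (0.0132), INCENP (-0.0201), RACGAP1 (0.0297) and WEE1 (0.014) with 1 transcript per gene, INCENP (-0.0232), NUSAP1 (0.01), RACGAP1 (0.0152) and WEE1 (0.00684) with the GC offset, NUSAP1 (0.000308), RACGAP1 (0.00799), UBE2C (0.00321) and WEE1 (0.00196) without a filter, NUSAP1 (0.00541), RACGAP1 (0.0169) and UBE2C (0.000448) with lengthScaledTPM counts, RACGAP1 (0.00272) with DESeq2 and with relative log expression factors, UBE2C (0.00132) with protein-coding transcripts and WEE1 (0.00496) with the replicate block. On leaving out libraries the values spanned 0 for BIRC5 (-0.0156 to 0.063), CDC25C (-0.102 to 0.0754), CDCA3 (-0.0628 to 0.057), CENPE (-0.165 to 0.072), DLGAP5 (-0.125 to 0.0199), INCENP (-0.0768 to 0.0769), KIF20A (-0.0579 to 0.0156), NUSAP1 (-0.0354 to 0.0325), RACGAP1 (-0.0215 to 0.016), UBE2C (-0.053 to 0.0425) and WEE1 (-0.122 to 0.165).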
